A study of Mus musculus with 8 samples.

Results

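The genes described here are those named as translation initiation or elongation factors on an expression array hybridised with RNA of hematopoietic stem cells (HSCs) from mouse bone marrow, the cells that renew themselves and give rise to all blood lineages. They were chosen by name: every non-control probe whose gene name in the scanner files begins with Eif1 to Eif6 or with Eef1 or Eef2 was taken, leaving out the eIF2 kinases (names beginning Eif2ak) and the sex-chromosome pair Eif2s3x and Eif2s3y. This gave 55 genes of 27601 gene names, measured by 124 of 41174 probes, and 38 of the genes had more than 1 probe. Some names are those of the array's design: the eIF3 subunits stand under their older Eif3s numbers, and Eif2c1 to Eif2c4 are the 4 Argonautes Ago1 to Ago4, which carry microRNAs to their targets and are not translation factors. Current names are used below, and the Argonautes are described separately. The array files list Eif6, Eif3m, Eif2d and Eif1ad under names that the rule does not match, so they are not among the 55.

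Total RNA of HSCs from mice labelled as strain B6 was hybridised to 8 Agilent 1-colour (Cy3) arrays, 1 sample per array. Control cells carried no mutant allele (Nras+/+, n = 2), heterozygous cells carried 1 (NrasG12D/+, n = 3) and homozygous cells 2 (NrasG12D/G12D, n = 3). The series title describes the mutant allele as endogenous; Nras encodes a small GTPase, and the G12D form stays in its active state. The labels do not say how old the mice were, how the allele was switched on or how the cells were sorted. Whether the samples of a group came from different mice is also not stated, and p-values then cover only the spread between these samples, which may be technical.

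Translation starts when eIF2, loaded with GTP and the initiator tRNA, joins the small ribosomal subunit together with eIF1, eIF1A, eIF3 and eIF5, and when the cap-binding eIF4F complex (eIF4E, the scaffold eIF4G and the helicase eIF4A) brings in the mRNA. eIF2B recharges eIF2 with GTP and is the step that the integrated stress response slows, while the 4E-BPs hold eIF4E away from eIF4G until mTORC1 phosphorylates them. The elongation factors eEF1A and eEF2 then deliver aminoacyl-tRNA and move the ribosome along the mRNA. HSCs are known for a low rate of protein synthesis compared with the progenitors they give rise to, and Ras signalling reaches this machinery through mTORC1 and the MNK kinases.

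All 124 probes are 60 bases long, and 21 of them match genomic stretches longer than 61 bases, as a probe does that joins parts of the transcript lying apart in the genome. The sequences below are those that the results turn on, given 5′ to 3′ from the scanner files, with the chromosome positions those files list, whose genome build is not stated. The Eif3d probe has the lowest unadjusted p, among the tested probes (1 per gene), in each comparison with Nras+/+ (chr15:77786828-77786887, minus strand).
Eif3d: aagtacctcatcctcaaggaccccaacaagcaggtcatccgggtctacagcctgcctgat
The Eef1a1 probe shown is the one of its pair that was not tested, and its pattern over the genotypes differs from that of the tested probe (chr9:78265656-78265715, minus strand).
Eef1a1: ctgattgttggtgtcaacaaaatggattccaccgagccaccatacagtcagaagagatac
The Eif2b5 probe was above background in mutant cells only (chr16:20420561-20420620, plus strand).
Eif2b5: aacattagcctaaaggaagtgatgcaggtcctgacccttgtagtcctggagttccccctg
The next pair, of Eif3c (chr7:126355584-126355643, minus strand) and Eif4g2 (chr7:110869678-110870476, minus strand), were high on a single array.
Eif3c: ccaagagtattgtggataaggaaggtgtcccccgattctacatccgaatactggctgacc
Eif4g2: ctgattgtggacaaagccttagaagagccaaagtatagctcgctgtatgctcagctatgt
The scaffolds Eif4g1 (chr16:20602848-20605821, plus strand) and Eif4g3 (chr4:137475547-137478087, plus strand) have probes at a like place of the message, and capitals mark the longest run of bases the pair shares, 9 bases.
Eif4g1: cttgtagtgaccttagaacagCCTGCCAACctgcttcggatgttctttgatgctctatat
Eif4g3: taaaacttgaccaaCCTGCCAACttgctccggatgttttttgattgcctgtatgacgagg
Probes of Eif5b (chr1:37977687-37978617, plus strand) and Eif4a1 (chr11:69484726-69484880, minus strand) were above background on all 8 arrays.
Eif5b: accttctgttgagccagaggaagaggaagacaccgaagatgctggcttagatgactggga
Eif4a1: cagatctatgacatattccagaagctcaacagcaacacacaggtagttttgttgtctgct

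Array-wide signal was low, with a median processed signal of 3.09 to 6.75 per array, 26.0% to 42.4% of spots well above background and no saturated spot. Of the HSC marker list, 10 of the 12 genes on the array had a probe well above background on at least 1 array and 4 on all 8, while Procr and Gata2 had none. The stem cell markers Ly6a and Slamf1 were among those 4, Kit was above background on 1 array, and Cd48, which HSCs carry little of, on 7. Markers of other lineages were also partly detected, with a probe above background on at least 1 array for 4 genes of 6 in the B cell list, 4 of 5 for T and NK cells, 4 of 5 for erythroid cells, 4 of 6 for neutrophils, all 4 for monocytes (Csf1r and Fcgr1 on all 8 arrays) and 2 of 4 for megakaryocytes, and their part in the results below was not tested. The 2 control arrays shared slide 1 with NrasG12D/+ replicates 1 and 2, and NrasG12D/+ replicate 3 shared slide 2 with the 3 NrasG12D/G12D arrays, so Nras+/+ and NrasG12D/G12D were never on the same slide. NrasG12D/+ replicate 1 stood apart from the rest: across 14666 genes its mean correlation with the other arrays was 0.557, against 0.619 to 0.634 for the other 7. In RNA from many cells, fewer cells expressing a gene and less of its RNA per cell cannot be told apart.

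Counted by gene, translation factors were detected more often than the average gene on each array. A probe was called detected where Feature Extraction flagged it as well above background. In Nras+/+ cells 37 and 32 of the 55 genes had such a probe (67.3% and 58.2%), in NrasG12D/+ cells 38, 41 and 34, and in NrasG12D/G12D cells 32, 31 and 36. Over all genes the share was 34.0% to 52.0%, and it was lowest on the same array as the members' share, NrasG12D/G12D replicate 2, and highest on the same array, NrasG12D/+ replicate 2. The genotypes overlapped in the number of members detected. Over the 8 arrays, 21 genes had a probe above background on every array, 25 on 1 to 7 arrays, and 9 on none. By probe rather than by gene the members were closer to the background, with 18.5% of member probes above background on all 8 arrays against 16.0% of all probes, and 37.1% against 43.3% on none. A gene counted as detected through any of its probes, and the members had 124 probes for 55 genes, against 41174 for 27601 gene names. What this adds to the members' share by gene was not tested. Member probes above background on no array had a median GC content of 37.5%, against 45% for those on all 8, and over all probes these values were 36.7% and 45%.

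The genes with no detected probe include core factors that every cell uses. The α and β subunits of eIF2, Eif2s1 and Eif2s2, were above background on no array, nor was the initiator-tRNA binding factor Eif2a, so no member of the eIF2 group could be tested. The same held for the cap-binding protein Eif4e, for the eIF4A cofactor Eif4h, for the eIF2B subunit Eif2b3, for the eIF3 subunits Eif3f and Eif3k, and for Eif1ax. Their probes were not well above background, which gives a bound on the signal and not a level. Eif2s3x, the third eIF2 subunit, which the rule leaves out, was above background on all 8 arrays, and so was Eif6, which keeps the ribosomal subunits apart. Eif6 read 2.19 and 0.68 in Nras+/+, 2.82, 0.30 and 1.997 in NrasG12D/+, and 1.26, 0.67 and 1.74 in NrasG12D/G12D, with the 3 genotypes overlapping. These values, like all levels below, are log2 processed signals relative to the array's 75th percentile over the probes detected on every array, listed in order of replicate number. A further 2 genes, the eEF2 kinase Eef2k and the eIF3 subunit Eif3l, were above background on 1 array and were not tested, since a probe had to be above background on at least 2. For Eef2k that array was in NrasG12D/+, and for Eif3l it was in NrasG12D/G12D.

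**Figure D1:**
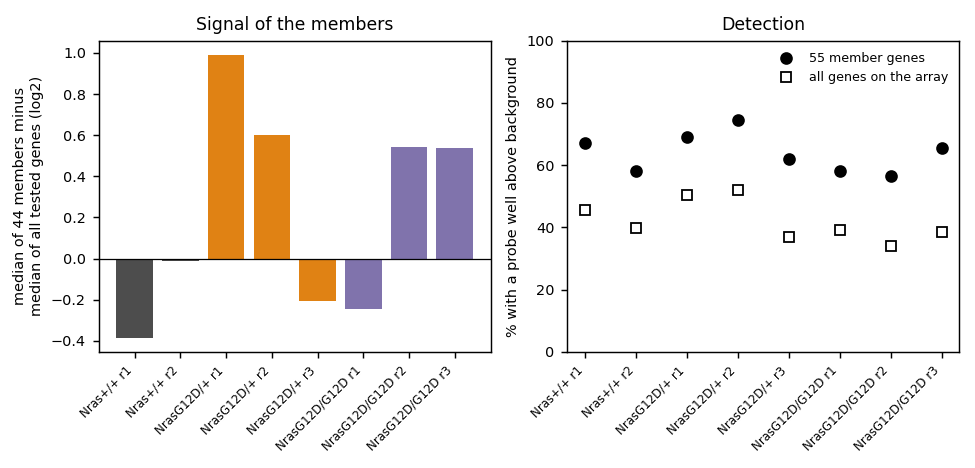
The left panel plots, for each array, the median log2 signal of the 44 tested members minus the median of all tested genes; grey bars are Nras+/+, orange NrasG12D/+ and purple NrasG12D/G12D. The right panel plots the percentage of the 55 member genes (filled) and of all genes on the array (open) with a probe well above background; the members lie between 56.4% and 74.5% and all genes between 34.0% and 52.0%.

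Among the 44 members tested, none passed an adjusted p of 0.05 in limma (Benjamini-Hochberg over 15100 genes) in any of the 3 comparisons, and neither did any other gene. The background of the adjusted threshold was thus 0% in each comparison, and the members' lowest adjusted p in limma was 0.812 when NrasG12D/+ was compared with Nras+/+, 0.726 when NrasG12D/G12D was, and 0.802 between the mutant genotypes. At an unadjusted p under 0.05 there were 3 members of 44 (6.82%) in each comparison, against 4.69%, 6.44% and 5.91% of all genes tested. By direction, NrasG12D/+ against Nras+/+ gave 2 higher (4.55%, with 2.31% of all genes) and 1 lower (2.27%, with 2.38%). NrasG12D/G12D against Nras+/+ gave 0 higher (1.32% of all genes) and 3 lower (6.82%, with 5.12%), and the comparison of the mutants 1 higher (2.27%, with 1.61%) and 2 lower (4.55%, with 4.3%) in NrasG12D/G12D. These shares lie near the background, so the counts do not set the members apart. The comparisons share arrays, in that both mutant genotypes were set against the same 2 Nras+/+ arrays. The count of 3 for NrasG12D/+ against Nras+/+ was 1 without any of 4 arrays, Nras+/+ replicate 1, NrasG12D/+ replicate 2, or NrasG12D/G12D replicates 2 or 3. For NrasG12D/G12D against Nras+/+ it was 1 without NrasG12D/G12D replicate 3, and between the mutant genotypes 1 without NrasG12D/+ replicate 1. The median standard error of a member's log2 change was 1.07 against Nras+/+ and 0.95 between the mutant genotypes on the log2 scale.

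Against the median of all genes, the members as a list lay somewhat higher in NrasG12D/+ cells. The median of all genes itself moved by -0.26, -0.44 and -0.20 in the 3 comparisons (NrasG12D/+ against Nras+/+, NrasG12D/G12D against Nras+/+, NrasG12D/G12D against NrasG12D/+), and the members' median was 0.32, -0.12 and -0.30. Relative to all genes this is 0.59, 0.32 and -0.10, and the values are the same without the 4 Argonautes. With normexp background correction they were 0.26, 0.02 and -0.21. A higher mean was found for 27 members (61.4%, with 41.7% of all genes), 21 (47.7%, with 35.3%) and 15 (34.1%, with 42.1%) in these comparisons. In NrasG12D/+ against Nras+/+, 29 of 44 members (65.9%) lay above the all-gene median, where 49.9% of all genes do; the counts were 25 (56.8%, with 49.7% of all genes) for NrasG12D/G12D against Nras+/+ and 19 (43.2%, with 49.7%) between the mutants. On single arrays the members' median relative to that of all genes was -0.38 and -0.01 in Nras+/+, 0.99, 0.60 and -0.20 in NrasG12D/+, and -0.24, 0.54 and 0.54 in NrasG12D/G12D. The genotypes overlapped, and the SD between replicates of this median was 0.49, close to the difference itself. Without NrasG12D/+ replicate 1 the value for NrasG12D/+ against Nras+/+ was 0.21 and that between the mutant genotypes 0.29, the opposite sign to the value with it. The value between the mutants was -0.39 without NrasG12D/+ replicate 2, -0.38 without replicate 3 and -0.26 without NrasG12D/G12D replicate 2. NrasG12D/G12D against Nras+/+ gave 0.10 without NrasG12D/G12D replicate 3 and 0.16 without Nras+/+ replicate 2, and 1.07 with the slide as a block, where the comparison rests on the NrasG12D/+ arrays. Within slide 1 NrasG12D/+ against Nras+/+ gave 0.48, and within slide 2 the comparison of the mutant genotypes gave 0.04.

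**Figure D2:**
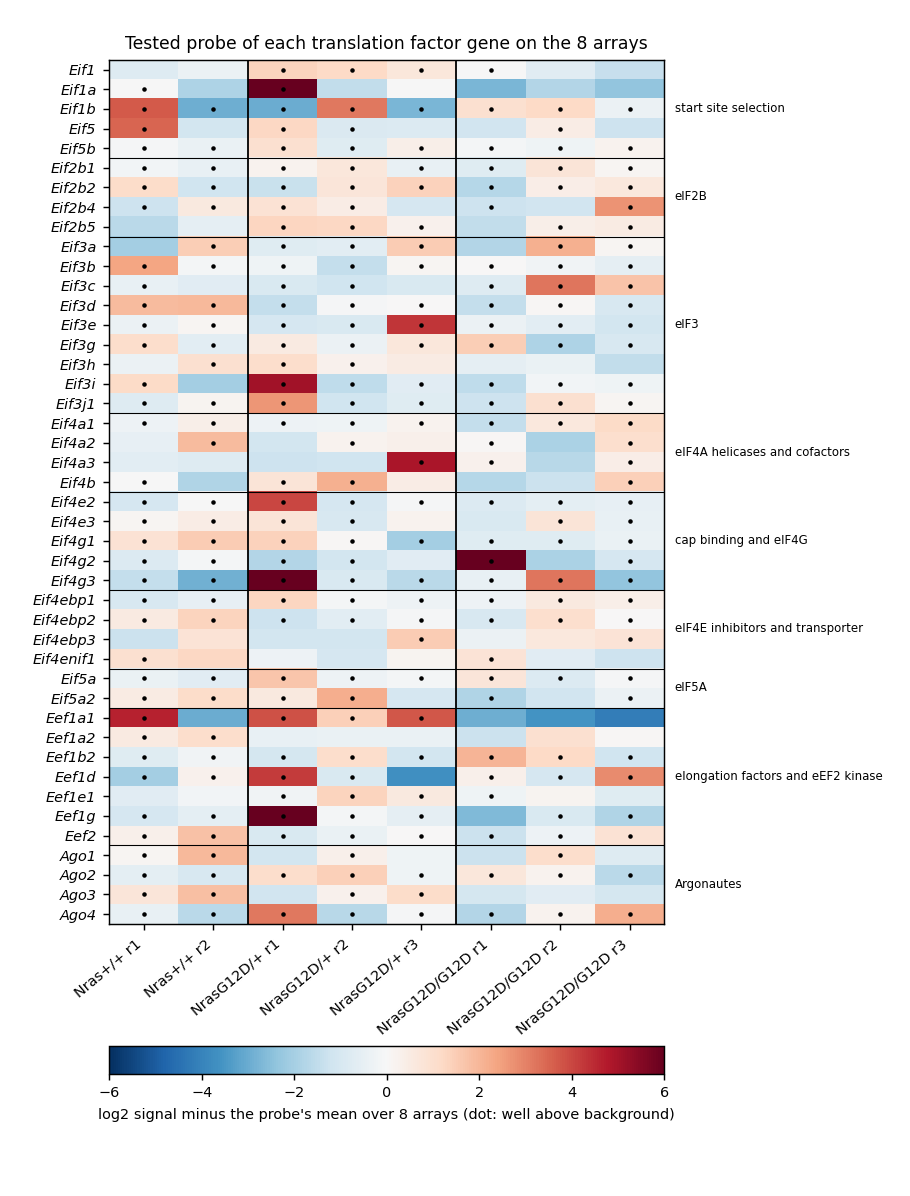
Each row is the tested probe of 1 of the 44 tested members, grouped by role, and each column an array; colour is the log2 signal minus that probe's mean over the 8 arrays, with colours ending at 6 in either direction, and a dot marks a probe well above background. No role is of one colour within a genotype, and isolated dark cells, such as Eif1a and Eef1g on NrasG12D/+ replicate 1, are single high arrays.

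Among the tested probes, 1 per gene, the lowest unadjusted p against Nras+/+ was that of Eif3d, the eIF3 subunit that can itself bind the cap of some mRNAs. Its probe was well above background on all 8 arrays and read -0.0076 and 0.012 in Nras+/+, -3.37, -2.0 and -1.92 in NrasG12D/+, and -3.36, -1.87 and -2.91 in NrasG12D/G12D. The 2 Nras+/+ arrays were alike and higher than all 6 mutant arrays, and the mutant genotypes overlapped. The log2 change was -2.43 (SE 0.80, unadjusted p = 0.014, adjusted p = 0.812 in limma) in NrasG12D/+ and -2.72 (SE 0.80, unadjusted p = 0.008, adjusted p = 0.726) in NrasG12D/G12D, and it did not pass over all genes. Between the mutant genotypes the difference was -0.29 (SE 0.71), with a sign that turned under 2 of the scalings. Within slide 1 the NrasG12D/+ value was -2.69; without Nras+/+ replicate 1 the unadjusted p in limma was 0.056 and without replicate 2 it was 0.058. The other Eif3d probe was above background on no array, so a single probe carries this difference.

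The remaining eIF3 subunits, which form the scaffold that keeps the small ribosomal subunit ready for the mRNA, showed no common direction. Of the 12 eIF3 genes on the array 9 were tested, 6 of them with a higher mean in NrasG12D/+ than in Nras+/+ and 3 with a higher mean in NrasG12D/G12D, with log2 changes from -2.43 to 1.39 and from -2.72 to 1.91. Eif3b, the subunit that binds several others, read 4.73 and 2.28 in Nras+/+, 2.14, 0.97 and 2.5 in NrasG12D/+, and 2.42, 2.17 and 1.87 in NrasG12D/G12D. Nras+/+ replicate 1 was higher than the other 7 arrays, which overlapped, and the log2 changes were -1.64 (SE 0.90) and -1.35 (SE 0.90). Eif3a, the largest subunit, ranged from -4.79 to -1.28 in Nras+/+, -3.48 to -1.22 in NrasG12D/+ and -4.50 to -0.62 in NrasG12D/G12D, so each genotype spanned nearly the same range. Eif3c, a core subunit, read -3.51 and -3.74, then -4.02, -4.26 and -3.99, then -3.88, 0.10 and -1.38 in the 3 genotypes. NrasG12D/G12D replicates 2 and 3 were high and replicate 1 was near the other genotypes; the log2 change between the mutants was 2.37 (SE 0.97, unadjusted p = 0.037, adjusted p = 0.802 in limma), and against Nras+/+ it was 1.91 (SE 1.08). Without NrasG12D/G12D replicate 2 the change between the mutants was 1.46, and within slide 2 it was 2.27 (unadjusted p = 0.229 in limma). Its unadjusted p in limma lay between 0.051 and 0.137 without any 1 array other than NrasG12D/G12D replicate 1, while in NrasG12D/+ against Nras+/+ it was -0.47. None of the 4 other Eif3c probes was above background on more than 2 arrays. The probe that was so on 2 arrays gave changes of the other sign when fitted by itself. They were -0.76 between the mutants and -0.05 for NrasG12D/G12D against Nras+/+.

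Eif3e, Eif3g and Eif3j1 were also detected on all 8 arrays. Eif3e, which contacts eIF4G, read -1.49 and -1.01 in Nras+/+, -2.15, -2.05 and 3.17 in NrasG12D/+ and -1.48, -1.78 and -2.24 in NrasG12D/G12D, so 1 array was far above the rest. Eif3g, an RNA-binding subunit, ranged from -1.88 to -0.21, from -1.59 to -0.57 and from -3.10 to 0.22 in the 3 genotypes, which overlapped. Eif3j1, a loosely held subunit, ranged from -3.23 to -2.26, from -3.62 to 0.23 and from -3.67 to -1.49, and overlapped too. For Eif3h the NrasG12D/G12D arrays (-4.67, -4.53 and -5.65) were lower than the Nras+/+ (-4.52 and -3.20) and NrasG12D/+ (-3.10, -3.89 and -3.68) arrays, with no NrasG12D/G12D array on which the probe was well above background. The difference was at least 1.27-fold lower against Nras+/+ and at least 1.57-fold lower against NrasG12D/+ (adjusted p = 0.744 and 0.802 in limma). For such a bound the dim group was given, on each array, the lowest signal of any probe well above background, or the probe's own signal if that was higher, and its mean was set against that of the bright group. The bright group kept its own signals, also on arrays where the probe was not well above background. Such a bound holds for the processed signals as scaled here, and other processing can give a smaller change. The Eif3h probe passed the detection filter only through NrasG12D/+.

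**Figure D3:**
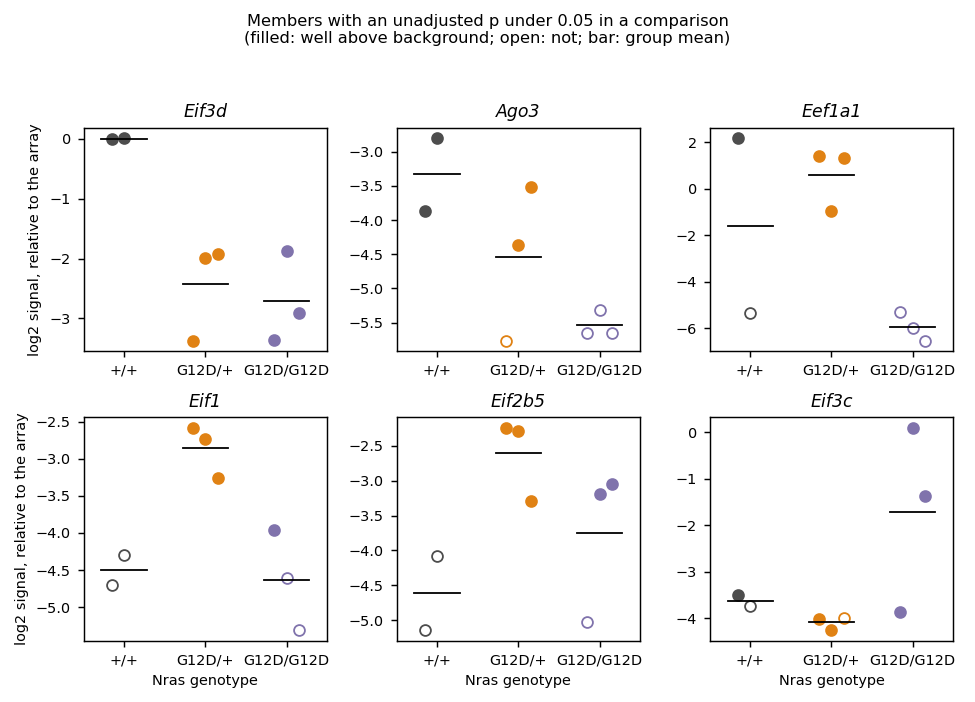
Each panel plots the log2 signal relative to the array for 1 of the 6 members with an unadjusted p under 0.05 in a comparison, by Nras genotype; points are arrays in order of replicate number, filled where the probe was well above background and open where not, and the bar is the group mean. Eif3d is near 0 on both Nras+/+ arrays and between -3.37 and -1.87 on the 6 mutant arrays, and the Eef1a1 probe is open on all 3 NrasG12D/G12D arrays.

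Of the factors that select the start codon, Eif5b and Eif1b had a probe above background on all 8 arrays. Eif5b, the GTPase that joins the ribosomal subunits, was among the most even of the members: it read -1.80 and -2.12 in Nras+/+, -0.78, -2.47 and -1.38 in NrasG12D/+ and -1.86, -2.0 and -1.52 in NrasG12D/G12D. Its log2 changes were 0.42 (SE 0.75) and 0.17 (SE 0.75), the second of which turned to -0.03 under normexp background correction, and the genotypes overlapped. A dimmer Eif5b probe, above background on NrasG12D/+ replicates 1 and 2 alone, differed, with 1.96 in NrasG12D/+ and -1.88 between the mutants (unadjusted p = 0.036 and 0.027 in limma with every probe fitted by itself). This dimmer probe passed the detection filter only through the group where it was high. Eif1b, a close relative of eIF1, was the opposite case, reading 3.37 and -3.21 in Nras+/+, -3.27, 2.88 and -3.06 in NrasG12D/+ and 0.68, 0.91 and -0.67 in NrasG12D/G12D. For Eif1b the Nras+/+ replicates differed nearly as much as its highest and lowest arrays, and its change between the mutants was 1.45 (SE 1.97). Eif5, the GTPase-activating protein of eIF2, read 0.02 and -4.58, then -2.20, -4.32 and -4.28, then -4.62, -3.00 and -4.68 in the 3 genotypes, and its log2 changes of -1.32 (SE 1.36) and -1.82 (SE 1.36) rest on Nras+/+ replicate 1. Its probe was above background on 4 of the 8 arrays.

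The tested probe of Eif1, which guards the choice of the AUG codon, was detected on all 3 NrasG12D/+ arrays, on neither Nras+/+ array and on 1 NrasG12D/G12D array. It read -4.70 and -4.30 in Nras+/+, -2.58, -2.74 and -3.27 in NrasG12D/+ and -3.96, -4.61 and -5.31 in NrasG12D/G12D, with the NrasG12D/+ arrays above all others. This probe passed the detection filter only through NrasG12D/+, the group where it was high. The difference was at least 2.38-fold higher in NrasG12D/+ than in Nras+/+ (log2 change 1.64, SE 0.72, unadjusted p = 0.0498, adjusted p = 0.812 in limma), and NrasG12D/G12D was lower than NrasG12D/+ by a log2 change of -1.77 (SE 0.65, unadjusted p = 0.023, adjusted p = 0.802). Against Nras+/+ the NrasG12D/G12D value was -0.13, a sign that turned under 4 of 5 scalings. With normexp background correction the NrasG12D/+ change was 0.01 and that between the mutants -0.22; within slide 1 the former was 1.84 and within slide 2 the latter -1.36. The unadjusted p between the mutants in limma was 0.057, 0.061 and 0.086 without NrasG12D/+ replicate 1, NrasG12D/+ replicate 2 and NrasG12D/G12D replicate 3. Without either Nras+/+ array, NrasG12D/+ replicate 1 or 2, or NrasG12D/G12D replicate 2 or 3, the unadjusted p for NrasG12D/+ against Nras+/+ lay between 0.0546 and 0.185 in limma. The files place this probe on chromosome 1 and the other Eif1 probe on chromosome 11, so which copy of the sequence was measured is uncertain, and the other probe was above background on Nras+/+ replicate 1 alone. The 3 probes of Eif1a divide in the same way between chromosomes 12 and 18.

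The eIF2B subunits, which recharge eIF2, had 4 of 5 genes tested, and all 4 had a higher mean in NrasG12D/+ than in Nras+/+, though with normexp background correction Eif2b1 and Eif2b2 had a lower one. Their log2 changes ran from 0.31 to 2.01, and in NrasG12D/G12D from -0.19 to 0.86. Eif2b5, the catalytic subunit, read -5.15 and -4.08 in Nras+/+, -2.24, -2.29 and -3.29 in NrasG12D/+ and -5.03, -3.19 and -3.04 in NrasG12D/G12D. Its probe was above background on all 3 NrasG12D/+ arrays and 2 of the NrasG12D/G12D arrays but on neither Nras+/+ array, and the NrasG12D/+ arrays lay above both Nras+/+ arrays. The probe thus passed the detection filter only through mutant arrays, where it was higher on average. The difference in NrasG12D/+ was at least 2.84-fold (log2 change 2.01, SE 0.87, unadjusted p = 0.046, adjusted p = 0.812 in limma), with 2.35 within slide 1 and 0.08 under normexp background correction. Without either Nras+/+ array, NrasG12D/+ replicate 1 or 2, or NrasG12D/G12D replicate 2 or 3, its unadjusted p lay between 0.0525 and 0.234 in limma. In NrasG12D/G12D the log2 change was 0.86 (SE 0.87), which turned to -0.13 under normexp, a difference of at least 1.28-fold. Eif2b1, the regulatory subunit, ranged from -3.52 to -3.26, from -3.55 to -2.42 and from -3.80 to -2.32 in the 3 genotypes, and Eif2b2 from -2.87 to -0.60, from -3.01 to -0.33 and from -3.42 to -1.06. Both were detected on all 8 arrays, and their genotypes overlapped.

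In the eIF4F group, the mRNA cap is bound by eIF4E, held by eIF4G and unwound by eIF4A. No array had Eif4e itself well above background, while Eif4e2, a cap-binding protein linked to repression, was above background on all 8. Eif4e2 read -0.80 and 0.22 in Nras+/+, 4.25, -0.80 and 0.15 in NrasG12D/+ and -0.58, -0.34 and -0.28 in NrasG12D/G12D, with NrasG12D/+ replicate 1 far above the other 7 arrays. Eif4g1, the main scaffold, read 0.16 and 0.80, then 0.68, -0.66 and -2.77, then -1.48, -1.44 and -1.10 in the 3 genotypes. All 3 NrasG12D/G12D arrays lay below both Nras+/+ arrays, the NrasG12D/+ arrays spread over both, and the log2 changes were -1.40 (SE 1.0) and -1.82 (SE 1.0, unadjusted p = 0.102, adjusted p = 0.726 in limma). Eif4a1, the helicase, read -1.85 and -1.20, then -1.83, -1.82 and -1.33, then -2.95, -0.92 and -0.41, with changes of -0.13 and 0.10 (SE 0.88 each) whose signs turned under other scalings. Eif4a2, its close relative, ranged from -4.52 to -2.15, from -5.13 to -3.73 and from -5.94 to -3.02, and was above background on 4 arrays, with changes of -0.90 and -0.99 (SE 1.09 each). Eif4b, which stimulates the helicase, read -4.31 and -6.08 in Nras+/+ and -3.54, -2.15 and -3.85 in NrasG12D/+, which did not overlap, and -5.99, -5.59 and -2.84 in NrasG12D/G12D. Its log2 change in NrasG12D/+ was 2.02 (SE 1.12, unadjusted p = 0.106, adjusted p = 0.812 in limma), with 0.07 under normexp background correction and -0.16 for a second Eif4b probe.

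The inhibitors of eIF4E did not share a direction. Eif4ebp1, which encodes 4E-BP1, read -3.72 and -3.27 in Nras+/+, -1.45, -2.90 and -3.08 in NrasG12D/+ and -3.06, -2.20 and -2.41 in NrasG12D/G12D, so that all 6 mutant arrays lay above both Nras+/+ arrays. The log2 changes were 1.02 (SE 0.77, adjusted p = 0.812 in limma) and 0.94 (SE 0.77, adjusted p = 0.764), and a further probe of the gene gave changes of the other sign, -0.83 and -0.30. Eif4ebp2, which encodes 4E-BP2, read -1.94 and -1.16 in Nras+/+, -3.76, -3.12 and -2.59 in NrasG12D/+ and -3.46, -1.48 and -2.47 in NrasG12D/G12D. The NrasG12D/+ arrays lay below both Nras+/+ arrays and the NrasG12D/G12D arrays overlapped them, with log2 changes of -1.61 (SE 0.82, unadjusted p = 0.083, adjusted p = 0.812 in limma) and -0.92 (SE 0.82). For Eif4enif1, which carries eIF4E into the nucleus, the mutant arrays (-6.50 to -4.43) lay below both Nras+/+ arrays (-4.30 and -4.03), a difference of at least 1.38-fold in NrasG12D/+ (log2 change -1.47, SE 0.83, adjusted p = 0.812 in limma). Its probe was above background on 2 arrays in all.

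Eif5a and Eif5a2 encode the hypusine-bearing factor that helps the ribosome through difficult stretches. Eif5a was above background on all 8 arrays, at -0.17 and -0.48 in Nras+/+, 1.87, -0.08 and 0.10 in NrasG12D/+ and 0.95, -0.63 and 0.14 in NrasG12D/G12D. The NrasG12D/+ arrays lay above both Nras+/+ arrays by a narrow gap, with a log2 change of 0.95 (SE 0.86, adjusted p = 0.815 in limma), and in NrasG12D/G12D the change was 0.48 (SE 0.86). Eif5a2 read -2.13 and -1.51, then -2.02, -0.44 and -3.64, then -4.41, -3.78 and -2.97, with all NrasG12D/G12D arrays below both Nras+/+ arrays and a log2 change of -1.90 (SE 1.0, unadjusted p = 0.0898, adjusted p = 0.726 in limma). Between the mutants its change was -1.68 (SE 0.89).

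Among the elongation factors the widest difference was that of Eef1a1, which delivers aminoacyl-tRNA to the ribosome. Its tested probe read 2.19 and -5.37 in Nras+/+, 1.42, -0.97 and 1.31 in NrasG12D/+ and -5.33, -5.99 and -6.55 in NrasG12D/G12D. It was well above background on all 3 NrasG12D/+ arrays, 1 Nras+/+ array and no NrasG12D/G12D array, so the Nras+/+ arrays stood at both extremes. This probe passed the detection filter only through NrasG12D/+, where it was high. NrasG12D/G12D was at least 27.6-fold lower than NrasG12D/+ (log2 change -6.54, SE 1.67, unadjusted p = 0.0036, adjusted p = 0.802 in limma) and at least 6.12-fold lower than Nras+/+ (log2 change -4.37, SE 1.87, unadjusted p = 0.0445, adjusted p = 0.726). The second of these was -0.59 without Nras+/+ replicate 1 and -8.15 without replicate 2, and of the fits in limma that left out 1 array its unadjusted p was under 0.05 without Nras+/+ replicate 2 and without NrasG12D/+ replicate 2 only. Within slide 2 the difference between the mutants was -7.27, and with normexp background correction it was smaller, -2.68. The NrasG12D/G12D change against Nras+/+ was -2.34 with normexp. Both normexp changes were smaller than the bounds above, which hold for the processed signals only. The bound against Nras+/+ also averages in Nras+/+ replicate 2, where the probe was not above background. Against Nras+/+, NrasG12D/+ stood at 2.17 (SE 1.87), which became 5.95 without Nras+/+ replicate 1 and -1.61 without replicate 2. The other Eef1a1 probe, whose sequence is given above, showed another pattern: -5.16 and -4.16 in Nras+/+, 1.13, -2.06 and -3.11 in NrasG12D/+ and -2.15, -3.42 and -1.82 in NrasG12D/G12D. It was above background on all 6 mutant arrays and on neither Nras+/+ array, with a log2 change of 3.31 in NrasG12D/+ (unadjusted p = 0.024 in limma with every probe fitted by itself). On all 3 NrasG12D/G12D arrays the first probe was thus not above background, as on Nras+/+ replicate 2, and the second was above its Nras+/+ values, so the fold above is that of a probe and not of the gene. Eef1a1 has many near-identical copies in the genome, and which of them each probe reads was not tested.

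Eef2, the translocase, read 0.02 and 1.44 in Nras+/+, -1.24, -0.72 and -0.26 in NrasG12D/+ and -1.61, -0.63 and 0.56 in NrasG12D/G12D, detected on all 8 arrays. The NrasG12D/+ arrays lay below both Nras+/+ arrays and the NrasG12D/G12D arrays overlapped them, with log2 changes of -1.48 (SE 0.87, adjusted p = 0.812 in limma) and -1.29 (SE 0.87, adjusted p = 0.740). Fitted by themselves, the further Eef2 probes gave changes of the other sign. They were 2.54 and 1.82 for a probe above background on 6 arrays, and 1.62 and 2.19 for a probe above background on 2. Of the eEF1B subunits, which recharge eEF1A, Eef1b2 was detected on all 8 arrays and ranged from -3.00 to -2.49, from -3.37 to -1.22 and from -3.47 to -0.25 in the 3 genotypes. Its change between the mutants was 1.05 (SE 0.99). Eef1g read -3.27 and -2.81, then 5.37, -2.35 and -2.76, then -4.90, -3.17 and -4.03: the changes of 3.13 (SE 2.12) in NrasG12D/+ and of -4.12 (SE 1.89) between the mutants rest on NrasG12D/+ replicate 1. Eef1d read -4.09 and -1.79, then 2.15, -2.99 and -5.76, then -1.75, -3.10 and 0.78, with changes of 1.58 (SE 2.09) in NrasG12D/G12D and 0.85 (SE 1.87) between the mutants, the latter -0.16 under normexp. Another Eef1d probe, above background on all 8 arrays, gave -0.72 in NrasG12D/G12D and 0.10 between the mutants. Eef1a2, the form of eEF1A found in muscle and nerve, was above background on both Nras+/+ arrays (-4.19 and -3.65) and on no mutant array, a difference of at least 1.63-fold against NrasG12D/+ and 1.22-fold against NrasG12D/G12D (adjusted p = 0.812 and 0.780 in limma). This probe passed the detection filter only through the group where it was high.

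**Figure D4:**
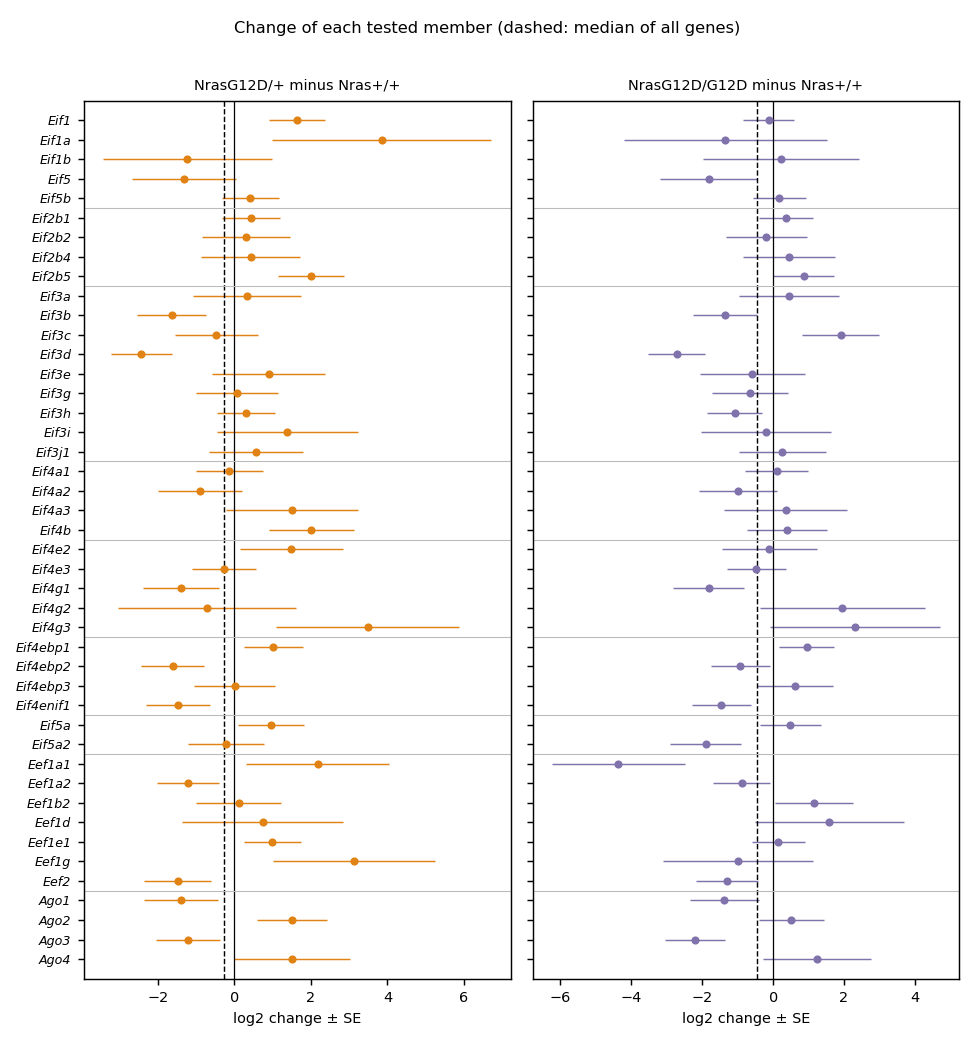
Log2 change with its standard error for each of the 44 tested members, NrasG12D/+ minus Nras+/+ (left) and NrasG12D/G12D minus Nras+/+ (right); the solid line is 0, the dashed line the median of all genes (-0.26 and -0.44), and grey lines divide the roles. Both panels share the 2 Nras+/+ arrays, and the widest bars belong to genes such as Eif1a (SE 2.86) with 1 array far from the rest.

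The groups of a comparison did not overlap for 13 of 44 members (29.5%) in NrasG12D/+ against Nras+/+, where 25.2% of all genes did the same. Of these 13, 7 were higher in NrasG12D/+ (15.9%, with 8.91% of all genes) and 6 lower (13.6%, with 16.3%). The higher ones were Ago2, Eef1g, Eif1, Eif2b5, Eif4b, Eif4ebp1 and Eif5a, and the lower ones Eef1a2, Eef2, Eif3c, Eif3d, Eif4ebp2 and Eif4enif1. In NrasG12D/G12D against Nras+/+ there were 7 such members (15.9%, with 28.9% of all genes), 6 of them lower (13.6%, with 22.9%) and only Eif4ebp1 higher (2.27%, with 6.02%). Between the mutants there were 6 (13.6%, with 11.6%), of which Eif3c was higher in NrasG12D/G12D (2.27%, with 2.89%) and 5 were lower (11.4%, with 8.69%). The members were thus near the background in the comparisons of NrasG12D/+ with either of the other genotypes, and under it in NrasG12D/G12D against Nras+/+.

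The Argonautes, which the file names place among the factors, were detected on 4 to 8 arrays. Ago3 was lower in NrasG12D/G12D: it read -3.87 and -2.80 in Nras+/+, -5.77, -4.36 and -3.51 in NrasG12D/+ and -5.66, -5.31 and -5.65 in NrasG12D/G12D, where no array had this probe well above background, though another Ago3 probe was so on NrasG12D/G12D replicate 2 (-3.54). That is at least 1.83-fold lower than Nras+/+ (log2 change -2.21, SE 0.84, unadjusted p = 0.028, adjusted p = 0.726 in limma). The unadjusted p was 0.169 without Nras+/+ replicate 2, 0.057 without NrasG12D/G12D replicate 1 and 0.0600 without replicate 3 in limma, and the change was -0.49 under normexp. The tested Ago3 probe passed the detection filter only through Nras+/+ and NrasG12D/+ arrays, where it was higher on average. With every probe fitted by itself, a further Ago3 probe gave a log2 change of -0.53 in NrasG12D/G12D against Nras+/+. That further probe was above background on NrasG12D/+ replicates 1 and 2 alone. Ago2, the slicer among the Argonautes, read -1.34 and -1.73, then 0.29, 0.64 and -1.03, then -0.10, -0.57 and -2.40, with the NrasG12D/+ arrays above both Nras+/+ arrays (log2 change 1.5, SE 0.91, adjusted p = 0.812 in limma). Ago4 read -0.0076 and -1.16, then 3.62, -1.22 and 0.40, then -1.29, 0.66 and 2.63, a spread within each mutant genotype wider than its log2 change of 1.25 (SE 1.52) in NrasG12D/G12D.

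Where a gene had more than 1 well-detected probe, the probes usually disagreed on the direction. In 7 genes a pair of probes was each above background on at least 6 arrays, and the probes of a pair had the same sign of change in 1 of 7 for NrasG12D/+ against Nras+/+ and in 2 of 7 for each of the other comparisons. For Eif4g3, a second eIF4G scaffold, the tested probe read -1.45 and -2.89 in Nras+/+, 6.47, -0.93 and -1.60 in NrasG12D/+ and -0.43, 3.20 and -2.37 in NrasG12D/G12D, with changes of 3.48 (SE 2.40) and 2.30 (SE 2.40). The junction probe of Eif4g3 printed above, also above background on all 8 arrays, gave -1.46 and -0.79 instead. For Eef2 the tested probe gave -1.48 in NrasG12D/+ and the other probe of the pair 2.54, and for Eif4ebp1 the pair gave 1.02 and -0.83. For Eif4a1, both of whose probes were above background on all 8 arrays, the values were -0.13 and 0.30 in NrasG12D/+. Eif5a2 was the 1 gene whose probes had the same sign in all 3 comparisons, with -1.90 and -0.92 in NrasG12D/G12D against Nras+/+. Since the brightest probe of a gene was the one tested, the values above are those of a probe, and a gene's other probes can differ.

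Several of the largest log2 changes rest on a single bright array. A probe was counted as high on a single array where it was at least 4 log2 units (16-fold) above its next array, a limit set after the data were seen. Of the 124 member probes 10 were (8.06%), against 3.48% of the 40692 probes with a value on every array. NrasG12D/+ replicate 1 held 5 of the 10 and also the most over all probes, 428 of 1418. On that array the Eif4g2 probe printed above read 7.40 and its next array -4.90, and the Eif3c probe read 6.85 with its next at -4.82. Eif1a, which opens the small subunit for scanning, read 6.20 there and -4.07 to -5.85 in Nras+/+, and the change of 3.85 (SE 2.86) of this tested probe in NrasG12D/+, the highest among tested members, rests on that array; between the mutants it was -5.20 (SE 2.56). A further Eif1a probe, on chromosome 18, was above background on all 3 NrasG12D/+ arrays (-3.60, -4.05 and -3.28) and on no other, with -6.67 and -6.04 in Nras+/+ and -5.51, -5.97 and -5.19 in NrasG12D/G12D. With every probe fitted by itself in limma its log2 change was 2.72 in NrasG12D/+ (unadjusted p = 0.0037, below that of Eif3d) and -1.92 between the mutants (unadjusted p = 0.013). No gene passed the adjusted threshold in that fit, and this probe passed the detection filter only through the group where it was high. The tested probe of Eif4g2, a scaffold without a cap-binding partner, was high on NrasG12D/G12D replicate 1 instead (4.41, next -3.05), which gave changes of 1.95 (SE 2.32) against Nras+/+ and 2.67 (SE 2.07) between the mutants. For none of the 10 probes did another probe of the same gene pass this limit on that array, and Eif4a3 had no other probe. The other Eef1g probe came near it: NrasG12D/+ replicate 1 was its one array above background, at -1.04 with its next array at -4.70, so both Eef1g probes were highest there.

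The genes that control or surround these factors, taken from lists drawn up by pathway, are given next by their counts. None of the genes on these lists had an adjusted p under 0.05 in limma, and at an unadjusted p under 0.05 the lists held 0 to 2 genes per comparison. Over the 66 tested genes of the 7 lists this makes 3.03%, 4.55% and 4.55% in the 3 comparisons, beside 4.69%, 6.44% and 5.91% of all genes. Of 16 tested genes of mTORC1 and its regulators, Rheb, the GTPase that activates mTORC1, was the 1 past an unadjusted p of 0.05, between the mutants (log2 change 3.14, SE 1.13). It read -3.19, -2.92 and -5.94 in NrasG12D/+ and -2.36, 0.31 and -0.58 in NrasG12D/G12D, with Nras+/+ at -3.59 and -0.97 overlapping both. Of 3 tested MNK and ribosomal S6 kinases, Mknk1, which phosphorylates eIF4E, had changes of -6.06 and -5.25 (SE 2.30 each), but it read -4.19 and 5.81 on the Nras+/+ arrays and -5.59 to -3.59 on all others, so 1 array gives both values. Of 12 tested genes of the eIF2 kinases and the integrated stress response, 2 were lower in NrasG12D/G12D than in Nras+/+ at that threshold (16.7%, with 5.12% of all genes). They were the amino-acid sensor Eif2ak4 (-3.72 and -3.22 against -6.26, -5.93 and -5.20, at least 1.66-fold lower) and the transcription factor Atf4 (-3.11 and -2.47 against -5.49, -4.19 and -4.995, at least 2.67-fold lower). No NrasG12D/G12D array had either of them well above background, their groups did not overlap, and the adjusted p was 0.726 for both in limma. The Eif2ak4 probe was above background on 2 arrays in all and that of Atf4 on 4. Both thus passed the detection filter only through arrays of the other genotypes, where they were higher on average. In NrasG12D/+ Atf4 lay between the other genotypes (-3.93, -3.72 and -3.65), and Eif2ak4 (-5.69, -5.05 and -3.71) overlapped both. The list's median relative to all genes was -0.54 in NrasG12D/+ and -0.16 in NrasG12D/G12D.

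Of 10 tested poly(A) binding and release factors, Abce1, which recycles ribosomes, was lower in NrasG12D/G12D than in NrasG12D/+ (log2 change -2.06, SE 0.78, at least 1.09-fold lower). Its probe was above background on 2 arrays, none of them in NrasG12D/G12D, so it passed the detection filter only through arrays of the other genotypes. Of 16 tested cytosolic aminoacyl-tRNA synthetases, Wars had a change of 4.21 (SE 1.69) in NrasG12D/+, at least 6.85-fold, from -4.99 and -6.09 in Nras+/+ to -2.89, 2.63 and -3.75. Its adjusted p was 0.812 in limma, and NrasG12D/+ replicate 2 (2.63) was far above all other arrays. No Nras+/+ array had the Wars probe well above background, so it passed the detection filter only through mutant arrays, where it was higher. Aars was lower in NrasG12D/G12D than in NrasG12D/+ (log2 change -2.39, SE 0.87). The 5 tested enzymes that make hypusine and diphthamide, the modified residues of eIF5A and eEF2, and the 4 tested mitochondrial translation factors held no gene at an unadjusted p under 0.05. The lists' medians relative to all genes ranged from -0.54 to 0.56 over the comparisons, beside the members' 0.59, 0.32 and -0.10.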

How the data were processed

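Agilent Feature Extraction 10.5.1.1 wrote the deposited scanner files, per the file headers, and the submitters' processing notes name the same software. The processed signal is a linear intensity that the authors deposited background-subtracted and detrended within each array, per the file headers, with no scaling between arrays. The deposited spot mean and local background intensities are uncorrected, and the spot flags are 0 or 1. The deposited value table is a ratio: each value equals the processed signal over its array's median, with a largest relative deviation of 1.7e-06, and all its column medians are 1.

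Log2 processed signals were averaged over a probe's spots, without outlier spots, and scaled to the array's 75th percentile taken over the 6576 probes that all 8 arrays flag as well above background. Probes well above background on at least 2 arrays were tested, the brightest per gene, which gave 15100 genes. Names came from accession, symbol or synonym in a RefSeq table (24375, 6301 and 2419 probes) and otherwise from the file (8079 probes). limma 3.58.1 in R 4.3.3 fitted 3 group means with 1 spread (lmFit, eBayes, two-sided, Benjamini-Hochberg over all genes, threshold 0.05). The script was tested on simulated data. The number of arrays limits the precision.

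Members named with values were a set of 14 central factors, the 5 largest changes per direction and comparison, members whose groups do not overlap at an unadjusted p under 0.05, and those detected on all 8 arrays; others were named for their detection, for groups that do not overlap or as examples. The members and lists were chosen with earlier results of these data known. The alternatives tried were normexp background correction (offset 50), 4 other normalizations, 2 other detection filters and the other detection flag, every probe by itself, 2-group fits, slide and replicate blocks, within-slide fits, array weights, and leaving out each array. Leaving out the Argonautes was added after the data were seen. The labels do not say whether replicate numbers pair the arrays, and the main fit did not pair them. Same-numbered arrays of different genotypes had deviations that correlated at -0.088 to 0.075, which does not settle whether the samples were paired.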

Additional observations from a re-analysis of the deposited data

How the results depend on the processing

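No member passed the adjusted threshold under any alternative, though other genes did. For NrasG12D/+ against Nras+/+, 1 gene passed with quantile normalization, the percentile over all probes, the value table, no filter or array weights. For NrasG12D/G12D against Nras+/+, 1 passed with quantile normalization, no filter, a fit of only the 2 groups, the slide block or array weights. Between the mutants 4 passed with the slide block. Leaving out 1 array gave 0 to 10, 0 to 9 and 0 to 2 genes in the 3 comparisons, with 10 and 9 without Nras+/+ replicate 2, where the lone Nras+/+ array is assumed to vary like the other groups. Members at an unadjusted p under 0.05 in limma, 3 in each comparison, became 1 with normexp and 1 with the filter on all 8 arrays for NrasG12D/+ against Nras+/+, and 5 with every probe by itself. They became 1 with the 8-array filter and 5 with the slide block for NrasG12D/G12D against Nras+/+. Between the mutants they became 1 with normexp, 0 with the 8-array filter, 5 with every probe by itself and 5 within slide 2. Leaving out 1 array gave 1 to 3, 1 to 4 and 1 to 4. The share of all genes moved too, between 3.42% (normexp) and 7.95% (slide block), 3.17% (normexp) and 9.06% (slide block), and 2.92% (normexp) and 6.67% (array weights) over the settings that keep all arrays or stay within a slide. The members' median relative to all genes ranged from 0.21 to 0.71, 0.10 to 0.43 and -0.39 to 0.29 when 1 array was left out, and was 1.07 with the slide block for NrasG12D/G12D against Nras+/+. With the replicate block the medians were 0.45, 0.41 and -0.10, with 4, 3 and 2 members at an unadjusted p under 0.05 and no gene past the threshold. The cause of these differences was not tested.

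Scaling set the balance of directions: of all genes at an unadjusted p under 0.05 in limma, 50.7%, 79.5% and 72.8% were lower in the 3 comparisons, and 33.4% to 75%, 34.1% to 73.7% and 31.0% to 70.9% under other scalings. For the 56 log2 changes named by rule, 1126 alternative values were computed, of which 71 had another sign, and 33 of the changes kept their sign throughout. Eif3d in NrasG12D/G12D against Nras+/+ had an unadjusted p under 0.05 in limma in 20 of 20 alternatives (log2 change -3.49 to -1.53), and in NrasG12D/+ in 19 of 21. The Eef1a1 probe between the mutants did so in 20 of 20, Eif2b5 in 12 of 20 and Eif1 in 10 of 20 for NrasG12D/+ against Nras+/+. All these alternatives refit the same arrays, so the counts are not independent tests. Leaving out either Nras+/+ array left the Eef1a1 change at -6.54. The filter on every array is missing for Eef1a1, Eif2b5 and Eif1, whose tested probes fail it. Those of Eef1a1 and Eif1 passed the main filter only through NrasG12D/+, where they were high. The other Eef1a1 probe gave -1.12 between the mutants (unadjusted p = 0.335 in limma with every probe fitted by itself). With the less strict detection flag, 43 to 52 members were detected per array. Low signal limits the rest: 31.2% to 47.1% of spots on each array held the value Feature Extraction gives to signals near background.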
